A study of Mus musculus with 21 samples.

Results

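The NMDA receptor subunit genes were followed in the cerebral cortex of mice 24 h after the last session of high-frequency head impact (HF-HI). They were taken by symbol, as the members of the Grin family that the deposited table holds: Grin1, Grin2a, Grin2b and Grin3a, 4 of the 7 Grin genes in the GENCODE mouse annotation and 4 of the 5544 genes in the table. Grin2c, Grin2d and Grin3b were not analysed here. The cortex came from male wild-type C57BL/6 mice labelled as 12 weeks old (substrain C57Bl/6J in the study's methods), 10 in the sham group and 11 in the HF-HI group, with 1 library of total RNA per mouse. The sham mice were handled and anesthetized like the HF-HI mice but received no impacts, so what both groups share includes repeated anesthesia. The whole cortex was homogenized, which means that a lower value of a transcript can come from fewer cells of a type or from less RNA per cell, and these cannot be told apart.

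NMDA receptors are glutamate-gated channels that admit calcium once glutamate and a co-agonist are bound and depolarization has removed magnesium from the pore. Each receptor contains the obligatory GluN1 subunit, encoded by Grin1, which binds glycine or D-serine, together with GluN2 subunits, which bind glutamate, or GluN3 subunits, which bind glycine. In the adult cortex GluN2A (Grin2a) and GluN2B (Grin2b) are the main partners of GluN1. Receptors with GluN2B close more slowly and carry the tail that recruits calcium/calmodulin-dependent kinase II, and the proportion of GluN2A rises as synapses mature. GluN3A (Grin3a) lowers the calcium permeability of the receptor and is most prominent in early postnatal life.

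All of the members lie on the minus strand of GRCm38, the assembly called mm10 in the authors' alignment. Grin1 (ENSMUSG00000026959) spans chr2:25291181-25319187. Grin2a (ENSMUSG00000059003) spans chr16:9567898-9995560, Grin2b (ENSMUSG00000030209) chr6:135713233-136173511 and Grin3a (ENSMUSG00000039579) chr4:49661611-49845744. The base composition of the genes is given here because it bears on the comparison of the subunits further on. Over the union of its exons Grin1 is 56.3% G and C, above 89.5% of the genes in the table. Grin2a is at 47.5%, Grin2b at 45.8% and Grin3a at 44.0%, against a median of 47.6% over the table. The coding sequences are closer to each other, at 55.8% in Grin1, 50.8% in Grin2a, 52.9% in Grin2b and 51.1% in Grin3a in the principal transcripts. The transcripts part after the coding sequence: the bases from the stop codon onwards were 67.0% G and C over 1190 bases in Grin1, 41.4% over 9932 bases in Grin2a, 43.9% over 18868 bases in Grin2b and 45.1% over 3618 bases in Grin3a.

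A stretch of the Grin1 coding sequence is shown so that the composition of the member with the highest GC content can be seen. It holds 93 bases at the end of the third transmembrane segment, which lines the pore and forms its gate, from the transcript strand and read 5′ to 3′, with G and C in capitals. The stretch lies within 1 coding exon of the GENCODE transcript, at chr2:25297166-25297258 on the minus strand of GRCm38, and 58.1% of its bases are G or C.
Grin1: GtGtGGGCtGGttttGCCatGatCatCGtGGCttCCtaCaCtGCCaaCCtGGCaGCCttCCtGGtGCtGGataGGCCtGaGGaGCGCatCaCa

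Grin1 was the subunit transcript that rose with HF-HI, Grin2a and Grin2b had small positive differences that did not pass the test, and Grin3a had a small negative one that did not pass either. The deposited values are variance-stabilized, in log2 units, and each gene was compared between the groups with limma's moderated test, Benjamini-Hochberg adjusted over all 5544 genes and called under an adjusted p of 0.05. By that rule 66.3% of the tested genes were called (3674 genes), 32.6% as higher (1810 genes) and 33.6% as lower (1864 genes), so a call is common in this comparison and 1 called gene of 4 is below the background share. Centring each library on its median split the calls into 1448 higher and 2376 lower. The groups did not overlap at all for 13.5% of genes.

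The Grin1 value ran from 11.68 to 12.05 over the 10 sham libraries, with a median of 11.92. In the 11 HF-HI libraries it ran from 12.10 to 12.39, with a median of 12.22. The lowest HF-HI library lay above the highest sham library, so the groups did not overlap. The means were 12.22 ± 0.0959 (SD, n = 11) and 11.91 ± 0.125 (SD, n = 10), a difference of 0.31 (standard error 0.0471, 95% interval 0.21 to 0.41, limma adjusted p = 5.40e-06). An antisense gene, Grin1os, overlaps the 3′ part of Grin1 on the other strand, and whether the authors' counting used the strand of the reads is not given in the sources used here.

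Grin2a ran from 11.71 to 11.95 in sham, median 11.79, and from 11.73 to 11.99 in HF-HI, median 11.91. The ranges almost coincided, although 8 of the 11 HF-HI libraries lay above the sham median and 4 lay above every sham library. The difference was 0.075 (standard error 0.0365, 95% interval -4.49e-05 to 0.15, limma adjusted p = 0.0723). Grin2a was called when sham library 8, with a difference of 0.091, or HF-HI library 1, 8 or 11 was left out, with 0.085, 0.091 and 0.086.

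Grin2b, the longest of these genes, ran from 14.50 to 14.66 in sham, median 14.56, and from 14.51 to 14.71 in HF-HI, median 14.62. The groups overlapped, with 9 of the 11 HF-HI libraries above the sham median and 5 above every sham library. The difference was 0.053 (standard error 0.0299, 95% interval -0.0089 to 0.11, limma adjusted p = 0.121). The upper bound of this interval lies below the lower bound of that of Grin1, and the sign of the Grin2b difference turned to -0.0063 with quantile normalization.

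Grin3a ran from 8.62 to 9.32 in sham, median 8.81, and from 8.58 to 9.04 in HF-HI, median 8.83. Sham libraries 5 and 9, at 9.32 and 9.23, stood above the other sham libraries, which reached 8.89, and also above every HF-HI library. The difference was -0.054 (standard error 0.0756, 95% interval -0.21 to 0.10, limma adjusted p = 0.538). Without those 2 sham libraries it was 0.043 (standard error 0.0567, adjusted p = 0.513), so no direction can be read for Grin3a. The same 2 libraries had the highest sham values of the AMPA receptor subunit gene Gria1. Grin3a holds the protein-coding gene Ppp3r2 within its span, on the same strand, and reads of one could have been given to the other.

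**Figure D1:**
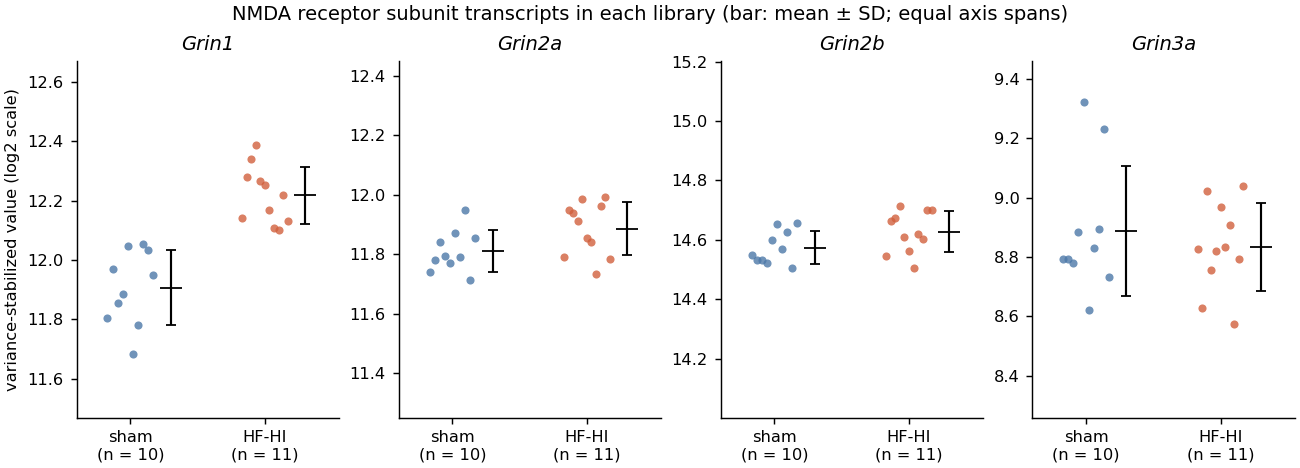
Variance-stabilized value (log2 scale) of Grin1, Grin2a, Grin2b and Grin3a in each sham (blue, n = 10) and HF-HI (orange, n = 11) library, with mean ± SD in black and equal axis spans. The Grin1 groups do not overlap, from 11.68 to 12.05 against 12.10 to 12.39, while those of the other members do, and 2 sham libraries stand high in Grin3a.

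To set the subunits beside each other, each value was turned back to a linear level and divided by the exonic length of its gene. On this scale per kilobase Grin2b was the most abundant member, at 983 ± 38.4 (SD, n = 10) in sham, followed by Grin1 at 397 ± 34.0, Grin2a at 201 ± 9.78 and Grin3a at 39.0 ± 6.41. The order was the same in HF-HI, with 1020 ± 48.7 (SD, n = 11) for Grin2b, 492 ± 33.1 for Grin1, 211 ± 13.1 for Grin2a and 37.3 ± 3.78 for Grin3a, and neighbours in it lay apart by more than their SDs in both groups. As a share of the summed level per kilobase of the members, Grin1 made up 24.5% ± 1.73 in sham and 27.9% ± 1.14 in HF-HI. The share of Grin2b was 60.7% ± 1.72 in sham and 57.9% ± 1.30 in HF-HI, that of Grin2a 12.4% ± 0.485 and 12.0% ± 0.628, and that of Grin3a 2.41% ± 0.377 and 2.12% ± 0.231. These levels rest on all annotated exons counting equally and on the variance-stabilized scale behaving as log2 of counts, which it does least well for low genes such as Grin3a. The exon union of Grin1 holds 9700 bases and its principal transcript 4238, against 24842 and 24060 for Grin2b. With transcript lengths Grin1 would stand higher relative to Grin2b, so their order and the shares depend on the length used. Levels on transcript lengths were not computed here.

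The balance of the subunits was then compared within each library, where anything that scales both genes alike cancels. Grin2a minus Grin2b, the balance of the glutamate-binding subunits, averaged -2.76 ± 0.0504 (SD) over the 10 sham libraries and -2.74 ± 0.0950 (SD) over the 11 HF-HI libraries. It ran from -2.83 to -2.68 in sham and from -2.92 to -2.62 in HF-HI, so the HF-HI libraries reached past the sham libraries at both ends. The difference between the groups, 0.022 ± 0.0328 (standard error), did not pass (permutation test, two-sided, p = 0.510). Per kilobase the level of Grin2a was 0.204 ± 0.00721 times that of Grin2b in sham and 0.208 ± 0.0134 times in HF-HI.

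Grin1 rose relative to its GluN2 partners in the deposited values, a difference that did not pass with the GC trend removed from each library (0.041, permutation test, p = 0.184). Grin1 minus the mean of Grin2a and Grin2b ran from -1.58 to -1.07 in sham, median -1.29, and from -1.18 to -0.93 in HF-HI, median -1.03. Of the 11 HF-HI libraries 8 lay above every sham library and all 11 above the sham median. The difference was 0.25 ± 0.0508 (standard error, permutation test, two-sided, p = 8.00e-05, adjusted p = 3.15e-04 over the 9 differences tested). It was 0.24 against Grin2a alone (adjusted p = 6.84e-04, permutation test) and 0.26 against Grin2b alone (adjusted p = 3.15e-04, permutation test). In levels per kilobase the ratio of Grin1 to the sum of Grin2a and Grin2b was 0.336 ± 0.0324 in sham and 0.400 ± 0.0228 in HF-HI. The size of this ratio rests on the exon-union length of Grin1 (9700 bases), and the shorter principal transcript (4238 bases) would raise it. Grin3a minus the same mean differed by -0.12 ± 0.0962 (standard error), with 2 HF-HI libraries below every sham library (p = 0.229, permutation test), and by -0.0098 without sham libraries 5 and 9 (exact permutation test, p = 0.898).

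**Figure D2:**
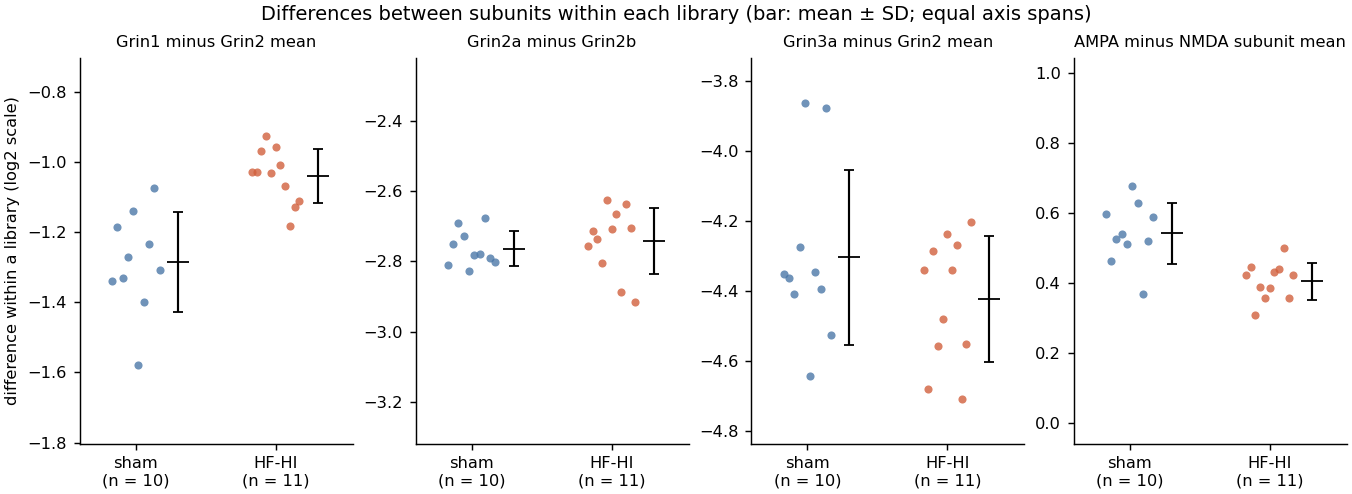
Differences between subunits within each library on the log2 scale, by group, with mean ± SD in black and equal axis spans. Grin1 minus the Grin2 mean is higher in HF-HI, with 8 of 11 libraries above every sham library. Grin2a minus Grin2b is alike in both groups within its spread, and Grin3a minus the Grin2 mean is spread widely. The mean of the AMPA subunits minus that of the NMDA subunits is lower in HF-HI. With the GC trend removed, Grin1 minus the Grin2 mean differs by 0.041 (permutation test, p = 0.184) and the AMPA minus NMDA mean by -0.033.

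The composition of the libraries moved with this shift. For each library the deviation of every gene from its overall mean was regressed on exonic GC content. The 10 sham slopes averaged -0.11 ± 0.0775 (SD) log2 units for 10% GC, from -0.23 to 0.0058, and the 11 HF-HI slopes 0.096 ± 0.0602 (SD), from -0.039 to 0.16 (permutation test, p = 2e-05, which is the lowest value that 100000 resamples allow). Grin1 rose with that slope within each group, though in HF-HI rho did not pass after adjustment. The slope was fitted over all genes, Grin1 included, so a gene rich in G and C can follow it by construction. How many genes of like GC content do the same was not computed. In sham Pearson's r was 0.917 and Spearman's rho 0.891 (permutation p = 4.60e-04 and 0.00146, adjusted p = 0.00368 and 0.0117 over 8 relations, n = 10), and r was 0.842 without the 2 libraries farthest from the median slope. In HF-HI r was 0.674 and rho 0.718 (permutation p = 0.00868 and 0.0160, adjusted p = 0.0347 and 0.0641, n = 11), and r was 0.569 without the 2 farthest libraries. For Grin2a and Grin2b r lay between -0.10 and 0.12 in both groups, but for Grin2a it rested on a few libraries, since without the 2 farthest from the median slope it was -0.58 in sham and 0.41 in HF-HI. For Grin3a it was 0.657 in sham (permutation, adjusted p = 0.0896, n = 10) and 0.221 in HF-HI.

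Removing a smooth trend on GC content from each library reduced the Grin1 difference from 0.31 to 0.12 (95% interval 0.059 to 0.18, limma adjusted p = 0.00132), which still passed. Grin2a was at 0.074 (95% interval 9.68e-04 to 0.15, adjusted p = 0.0737), Grin2b at 0.086 (0.024 to 0.15, adjusted p = 0.0166), now past the threshold, and Grin3a at 0.0059 (-0.16 to 0.17, adjusted p = 0.955). The separation of Grin1 from its partners did not remain past the threshold: Grin1 minus the Grin2 mean then differed by 0.041 (permutation test, two-sided, p = 0.184), and Grin2a minus Grin2b by -0.012 (p = 0.739, permutation test). Thus the rise of Grin1 was called with and without the trend, its excess over Grin2a and Grin2b was called with the trend in place, and the part of GC content in that excess was not tested, since the removal takes out any difference that follows GC content.

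**Figure D3:**
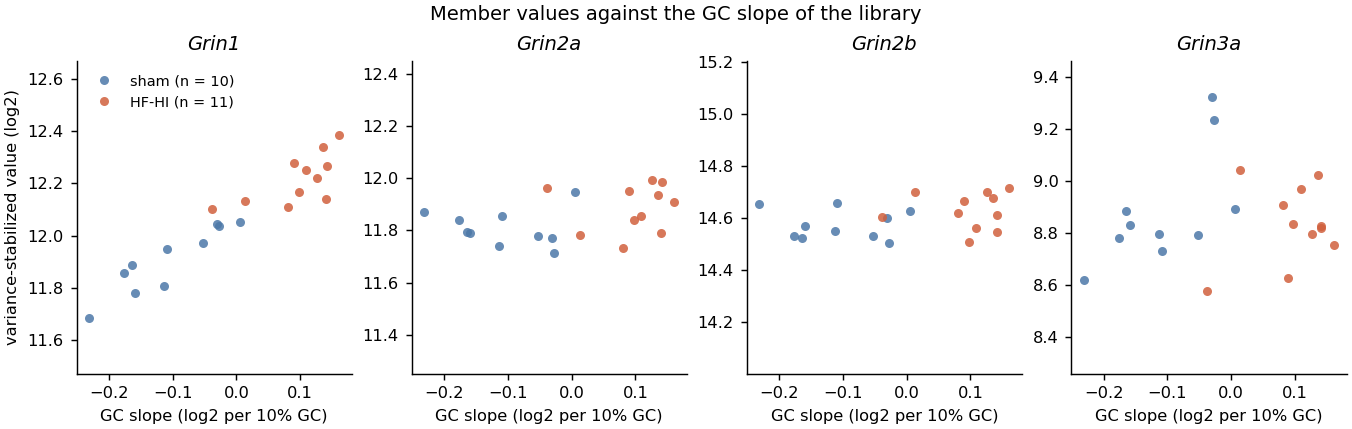
Value of each member (log2 scale) against the GC slope of the library (log2 units per 10% exonic GC), sham in blue (n = 10) and HF-HI in orange (n = 11). Grin1 climbs with the slope inside each group (r = 0.917 in sham and 0.674 in HF-HI), whereas r for Grin2a and Grin2b lies between -0.10 and 0.12.

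**Figure D4:**
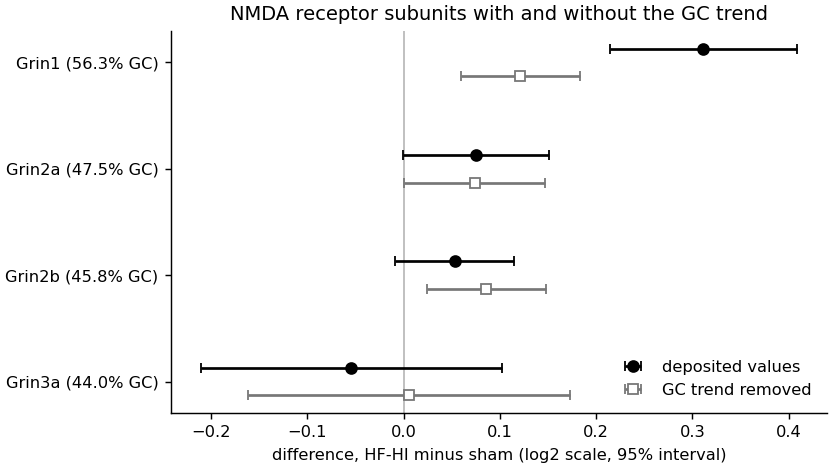
Difference between HF-HI and sham for each member with its 95% interval on the log2 scale, from the deposited values (filled circles) and after removal of the GC trend of each library (open squares), with the exonic GC content of the gene. Grin1 moves from 0.31 to 0.12, Grin2a hardly moves, and Grin2b and Grin3a move up.

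Correlations among the members within a group were estimated from 10 or 11 libraries each, and none of the 12 passed after adjustment, which leaves wide room for relations in either direction. The nearest was Grin1 with Grin3a in sham (r = 0.701, rho = 0.661, permutation p = 0.00996 and 0.0431, adjusted p = 0.120 and 0.214, n = 10), where r in HF-HI was 0.038. Grin2a and Grin2b had r = 0.696 in sham and 0.315 in HF-HI (permutation, adjusted p = 0.174 and 0.580, n = 10 and 11). Grin2a and Grin3a had r = -0.48 in sham and -0.50 in HF-HI, and Grin1 and Grin2a r = 0.52 in HF-HI (permutation, adjusted p = 0.329 for each, n = 10 and 11).

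The genes whose pattern was most like each member were ranked by Pearson's r over the 21 libraries after the mean of its group had been taken from each gene. For Grin1 they were Crtc1 (r = 0.915), a coactivator of CREB, Cacna1b (r = 0.914), the pore subunit of the N-type calcium channel, and Plec (r = 0.901), a cytoskeletal linker. These genes were 56.1%, 52.8% and 61.2% G and C. Crtc1 and Plec were also called higher, by 0.57 and 0.38, whereas Cacna1b was at -0.022 (limma adjusted p = 0.620). With the GC trend removed Plec was at 0.063 and not called (adjusted p = 0.0637), and Cacna1b was called lower, at -0.13. For Grin2a they were Tmem132d (r = 0.778), Gpr26 (r = 0.777) and Sel1l3 (r = 0.769), and for Grin2b Usf3 (r = 0.803), Med14 (r = 0.768) and Ncoa1 (r = 0.758). For Grin3a they were Timp2 (r = 0.880), an inhibitor of metalloproteinases, Hap1 (r = 0.877), the huntingtin-associated protein, and Lypd1 (r = 0.870). Hap1 ranged widely in sham, at 8.95 ± 0.577 (SD, n = 10). Sham libraries 5 and 9 held the highest Grin3a values, at 9.32 and 9.23. Leaving out library 5 or 9 moved the Hap1 difference from -0.028 to 0.096 or 0.071. It moved that of Lypd1 from -0.28 to -0.19 or -0.20. Other single libraries left out moved them the other way, as far as -0.11 for Hap1 and -0.33 for Lypd1. How far the r values for Grin3a rest on sham libraries 5 and 9 was not tested. Among the members themselves Grin2b ranked 235 of all genes for likeness to Grin2a (r = 0.451), while Grin2a ranked 1930 for likeness to Grin1 (r = 0.245). All libraries share the normalization and these values carry no test.

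The AMPA receptor subunits, which carry the fast part of the glutamate response, moved in both directions. Gria1 (GluA1) was higher by 0.44 (95% interval 0.26 to 0.62, limma adjusted p = 1.07e-04), with sham from 11.24 to 12.15 and HF-HI from 11.96 to 12.24. The sham range was wide, and without sham libraries 5 and 9, which held its highest sham values, the Gria1 difference was 0.55. Gria2 (GluA2), which makes the AMPA receptor impermeable to calcium, was lower by 0.23 (sham from 14.19 to 14.38, HF-HI from 14.00 to 14.12, with no overlap, adjusted p = 1.93e-07). Gria3 was at -0.17 and Gria4 at -0.20, both called lower (adjusted p = 2.30e-05 and 1.88e-05). After removal of the GC trend these differences were 0.41, -0.077, -0.048 and -0.13, of which that of Gria3 was no longer called (adjusted p = 0.187).

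Paired within a library, Grin1 rose against Gria2, while its difference against Gria1 did not pass the test. Grin1 minus Gria2 ran from -2.69 to -2.13 in sham and from -2.02 to -1.64 in HF-HI, without overlap, a difference of 0.54 ± 0.0663 (standard error, permutation test, p = 2e-05, again the lowest possible value, adjusted p = 1.80e-04). It was 0.20 with the GC trend removed (p = 6.00e-05, permutation test). Grin1 minus Gria1 ran from -0.11 to 0.73 in sham and from -0.0015 to 0.35 in HF-HI, a difference of -0.13 ± 0.0916 (standard error, permutation test, p = 0.163, adjusted p = 0.210). That value was -0.29 with the GC trend removed (p = 0.00364, permutation test). Without sham libraries 5 and 9 the Grin1 minus Gria1 difference was -0.20. These libraries were chosen after seeing the data and held the highest sham Gria1 values. Leaving them out moves this difference down by construction, so no test is given for it. The mean of the 4 AMPA subunits minus the mean of the 4 NMDA subunits was 0.54 ± 0.0875 in sham and 0.41 ± 0.0528 in HF-HI, below the sham median in 11 of 11 HF-HI libraries, and its difference of -0.14 was -0.033 with the GC trend removed.

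The cell types that carry NMDA receptors were checked through marker lists. All 15 pan-neuronal markers were in the table, none under a value of 9.58. Of these 9 (60%) were called higher and 2 (13.3%) lower, against 32.6% and 33.6% over all genes (median difference 0.14). The lower ones were Stmn3 (-0.32) and Map2 (-0.097). With the GC trend removed Map2 (-0.028) and Tubb3 (-0.11) lost their calls, Eno2 (-0.25) was called lower and Elavl4 (0.18) higher. The log2 of the summed level of the 15 markers ran from 16.80 to 16.90 in sham and from 16.86 to 17.00 in HF-HI. Against the mean of these markers in the same library Grin1 differed by 0.088 ± 0.0503 (standard error, permutation test, p = 0.0947, adjusted p = 0.142), a value that passed without HF-HI library 9 (0.11, permutation p = 0.0454) and was -0.035 with the GC trend removed. The mean of Grin2a and Grin2b fell against the neuron markers, from 1.21 ± 0.0612 in sham to 1.06 ± 0.0693 in HF-HI. That difference was -0.16 ± 0.0285 (standard error, permutation test, adjusted p = 3.15e-04), with 8 of 11 HF-HI libraries below every sham library, and -0.077 with the GC trend removed (permutation test, p = 0.0244).

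Markers of excitatory neurons were, like Grin1, mostly higher in HF-HI, with a median difference of 0.54. Of the 9 tested, 6 were called higher and 0 lower, against 32.6% and 33.6% over all genes. The log2 of their summed level ran from 13.46 to 13.81 in sham and from 14.20 to 14.53 in HF-HI. The largest were Nrgn (1.32), the postsynaptic calmodulin-binding protein neurogranin, Tbr1 (1.02), a deep-layer transcription factor, and Slc17a7 (0.89), the vesicular glutamate transporter of cortical projection neurons. Among the layer markers that were not called, Rorb was at -0.055 and Foxp2 at -0.14. Of 10 interneuron markers 5 were called higher and 1 lower, and of 11 astrocyte markers 5 higher and 3 lower, beside the 32.6% and 33.6% of all genes. The log2 of the summed level ran from 13.57 to 13.78 in sham and from 13.65 to 13.92 in HF-HI for interneurons, and from 16.56 to 16.68 and from 16.65 to 16.76 for astrocytes, overlapping in both lists. For oligodendrocytes 3 of 9 were called higher and 0 lower, with summed levels that overlapped between the groups (15.30 to 16.02 in sham, 15.34 to 16.02 in HF-HI). Only 3 of 11 microglial, 2 of 8 endothelial and 1 of 5 choroid plexus markers were in the table analysed, so those cells could hardly be followed. The 3 microglial markers summed to between 10.99 and 11.11 in sham and between 10.74 and 11.01 in HF-HI on the same scale. Of 6 striatal markers 0 were called higher and 1, Drd1, lower. The part of these markers in the Grin1 difference was not tested.

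Around the receptor, 96 of 118 listed pathway genes were tested, and 44 (45.8%) were called higher and 26 (27.1%) lower, against 32.6% and 33.6% over all genes. The lists were chosen with earlier results of these data known, so this contrast is a description and not a test of the pathway. The pathway split was 39 higher and 32 lower with each library centred on its median, and 41 and 30 with quantile normalization. With the GC trend removed it was 43 higher and 15 lower. In the same order, all genes split into 1448 higher and 2376 lower, 1547 and 2242, and 1620 and 1715. The median difference of the pathway genes was 0.068, against -0.0086 over all genes. The other ionotropic glutamate receptor subunits moved both ways, with 3 of 8 tested called higher and 4 lower (median -0.018). Beside Gria1, the kainate receptor subunits Grik5 (0.34) and Grik3 (0.19) were higher. With the GC trend removed Grik5 was at 0.059 and Grik3 at 0.048, and neither was called (limma adjusted p = 0.440 and 0.383).

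Of the genes that supply or clear the agonists, 4 of 8 tested were called higher and 2 lower (median 0.079). These are 50% and 25%, against 32.6% and 33.6% over all genes. Slc17a7, which loads glutamate into vesicles, rose by 0.89 without overlap of the groups, from 12.35 ± 0.179 (SD, n = 10) to 13.24 ± 0.101 (SD, n = 11). Glul, the glutamine synthetase of astrocytes, rose by 0.17. The astrocyte glutamate transporters went both ways, with Slc1a3 lower by 0.17 and Slc1a2 called higher by 0.073 (limma adjusted p = 0.0323). With the GC trend removed Slc1a3 was at -0.11 and Slc1a2 at 0.11, both still called. For the co-agonist, the serine racemase gene Srr was at 0.084 (limma adjusted p = 0.0974) and Slc1a4, which carries serine, was called higher by 0.16, a call it lost at 0.048 with the GC trend removed (adjusted p = 0.202).

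The scaffolds and anchors of the postsynaptic density held several large differences, with 10 of 18 tested genes called higher and 2 lower (median 0.14). These are 55.6% and 11.1%, against 32.6% and 33.6% over all genes. Dlgap4, a linker between PSD-95 and the Shank proteins, rose by 1.16 from 9.34 ± 0.236 (SD, n = 10) to 10.50 ± 0.158 (SD, n = 11), and Shank3, the scaffold next to it, rose by 1.07. Neither overlapped between the groups. With the GC trend removed they were at 0.92 and 0.72, both still called. All 3 Shank genes and all 4 Dlgap genes were called higher, as was Dlg4, which encodes PSD-95 (0.48, limma adjusted p = 7.18e-06). Of these, Shank1 went from 0.49 to 0.17 with the GC trend removed and was no longer called (adjusted p = 0.271). The paralogs of Dlg4, Dlg1 (SAP97) and Dlg2 (PSD-93), were lower, by 0.15 each. They were at -0.060 and -0.043 without the GC trend, where neither was called.

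Of the genes of receptor trafficking and auxiliary subunits, 5 of 13 tested were called higher and 5 lower (median -0.017). That is 38.5% each way, near the 32.6% and 33.6% of all genes. The adaptors Mpp2 (0.59) and Apba1 (0.49), the second of which links the vesicles that carry GluN2B to their motor, were higher, and so was Neto1 (0.24), an auxiliary subunit. Ap2m1, the adaptor subunit of clathrin endocytosis, was lower by 0.27, Lin7a by 0.16, and the retromer subunit Vps35 by 0.14. Ap2m1 was at -0.34 with the GC trend removed (limma adjusted p = 1.61e-07), farther from 0 than before, whereas Vps35 was at -0.010 and no longer called (adjusted p = 0.803).

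Kinases and phosphatases that act on the receptor tails counted 11 of 24 called higher and 7 lower (median 0.016). These are 45.8% and 29.2%, against 32.6% and 33.6% over all genes. Csnk2b, the regulatory subunit of casein kinase II, rose by 0.77 without overlap, and Ptpn5, the striatal-enriched phosphatase that acts on GluN2B, rose by 0.71. Of the calcium/calmodulin-dependent kinase II genes Camk2a (0.35), Camk2b (0.25) and Camk2g (0.23) were called higher and Camk2d was at -0.10 (limma adjusted p = 0.379). The Src-family kinase gene Fyn was called higher (0.39) and Src was at 0.022 and not called. With the GC trend removed Src was called lower, at -0.27 (limma adjusted p = 2.62e-07), and Fyn was still called higher, at 0.36. The catalytic subunits of protein phosphatase 1, Ppp1ca and Ppp1cc, were lower by 0.22 and 0.16, and those of calcineurin, Ppp3ca and Ppp3cb, by 0.081 and 0.10. With the GC trend removed Ppp3ca and Ppp3cb were at 0.015 and 0.042, with the sign turned and neither called (limma adjusted p = 0.689 and 0.301). The regulatory subunit of calcineurin, Ppp3r1, was called higher by 0.28, and by 0.39 with the GC trend removed. Ppp1r9b, of the same list, was called higher by 0.70 without overlap, and by 0.36 with the GC trend removed.

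Calcium effectors downstream of the channel were even, with 4 of 13 tested called higher and 4 lower (median -0.016). That is 30.8% each way, near the 32.6% and 33.6% of all genes. Rasgrf1, a Ras activator, rose by 0.46. Hras and Itpka, an inositol trisphosphate kinase of spines, were lower by 0.30 each, and by more, at -0.50 and -0.61, with the GC trend removed.

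Among transcription regulators that act on the subunit genes or answer to the channel, 3 of 8 tested were called higher and 2 lower (median 8.21e-04). These are 37.5% and 25%, against 32.6% and 33.6% over all genes. Crtc1 (0.57) and Mef2d (0.55) were the largest of the higher ones, and Sp3 (-0.22, without overlap) and Creb1 (-0.17) were lower. Creb1 was at -0.041 and not called with the GC trend removed (limma adjusted p = 0.385). Genes that synaptic activity induces were all called higher as far as they were tested, 4 of 4, of 10 listed (median 1.23), beside 32.6% of all genes. Arc, the regulator of AMPA receptor endocytosis, rose by 1.60 from 9.67 ± 0.532 (SD, n = 10) to 11.28 ± 0.326 (SD, n = 11) without overlap. Nr4a1 rose by 1.35, Egr1 by 1.10 and Junb by 0.97. Each of these differences was over 3 times that of Grin1.

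**Figure D5:**
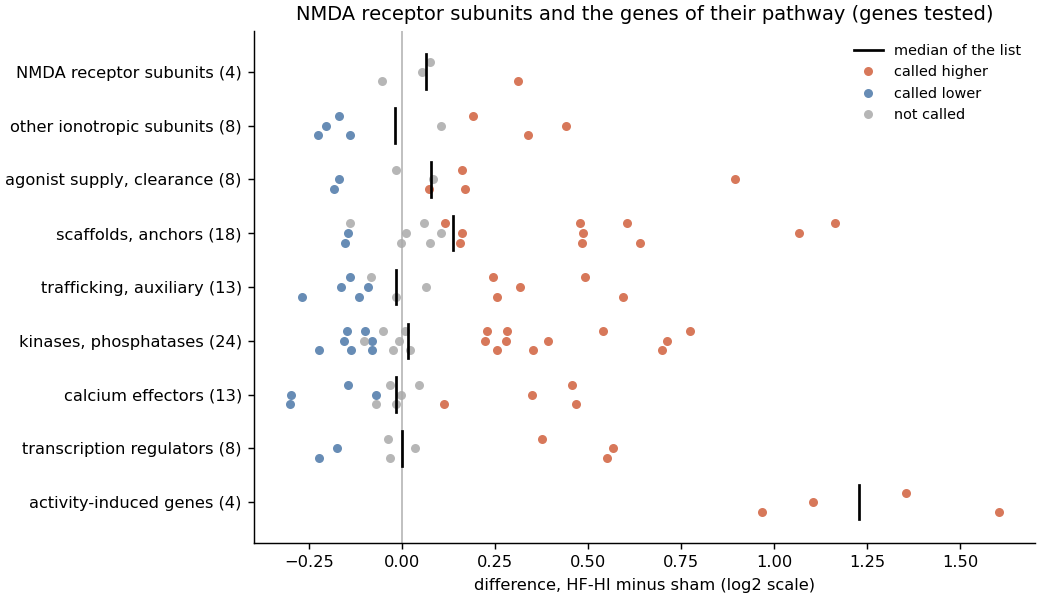
Difference between HF-HI and sham on the log2 scale for the NMDA receptor subunits and for each tested gene of the pathway lists (number of tested genes in brackets), coloured by call, with the median of each list as a black bar. The activity-induced genes and the scaffolds reach the largest values, while the NMDA receptor subunits lie between -0.054 and 0.31.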

How the data were processed

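Total RNA of the cortex was sequenced from 10 sham and 11 HF-HI mice, 1 library each. The authors made stranded libraries after removal of ribosomal RNA in pools, aligned them to mm10 with STAR, counted transcripts with eXpress and filtered outliers by Cook's distance. The values the authors deposited were made with DESeq2, are variance-stabilized and lie on a log2 scale, from 4.59 to 17.7. The versions of STAR and eXpress and the pool of each library are not given in the sources used here. Depth per library is unknown, so precision was judged from the SD over the mice of a group, whose median over genes was 0.111 in sham and 0.0922 in HF-HI. Each column was matched to its library by name, and 0 pairs of libraries held identical values.

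The members and gene lists were chosen with earlier results of these data known. Differences were fitted in R 4.3.3 with limma 3.58.1 (linear fit, trended eBayes, two-sided, Benjamini-Hochberg over 5544 genes), after the fit had been tested on simulated data. Differences within a library were compared by permutation of the group labels with 100000 resamples. Other steps used Python 3.11.15, numpy 2.4.6, scipy 1.17.1 and pandas 2.3.3, and figures matplotlib 3.10.9. Symbols were found for 5539 genes and exonic GC content, over the union of exons, for 5539, from the GENCODE annotation of GRCm38. The GC trend of a library was a lowess curve (span 0.3) through its deviations from the overall mean of each gene. Named genes were the members, Gria1 to Gria4, the 2 called genes with the largest positive and negative differences of each pathway list, and the 3 genes most correlated with each member. Other genes named from the lists were chosen after their values were seen. Some genes that this rule names, and some sequences, are not reported here. The alternatives were median centring, quantile normalization, removal of the GC trend, the replicate number as a block with and without that removal, a filter on the lowest quartile, eBayes without a trend, the Wilcoxon test, a threshold of 0.1, a minimum difference of 0.25, group medians and each library left out in turn. Leaving out sham libraries 5 and 9 together was chosen after seeing the data.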

Additional observations from a re-analysis of the deposited data

Results flagged for a closer look

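Glul, the glutamine synthetase gene, had 1 sham library far from the rest: library 8 was at 14.059, while the other sham libraries ran from 14.188 to 14.333. The gap was 0.470 of the range of the group, past Dixon's critical value at 95% for 10 samples. It was 1 of 56 sham groups of values examined in this way, where chance flags about 1 in 20, and the HF-HI group was not examined because it holds 11 libraries.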

How the results depend on the processing

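The Grin1 difference kept its direction and its call under all 9 alternatives and with any single library left out, from 0.12 to 0.34 over the alternatives and from 0.29 to 0.33 with a library left out. Removal of the GC trend brought Grin2b to 0.086 (called), Grin3a to 0.0059 and Grin2a minus Grin2b to -0.012. It brought Grin1 minus the neuron markers to -0.035 and Grin1 minus Gria1 to -0.287 (called). The AMPA minus NMDA mean went to -0.033 and pathway genes called lower to 15. The call was lost for Grin1 minus the Grin2 mean (0.041), Grin1 minus Grin2a (0.047) and Grin1 minus Grin2b (0.035). The cause was not tested. Quantile normalization turned Grin2b to -0.0063 and Med14, not called, to -0.0068, and centring on medians turned Med14 to -0.014. Group medians turned Grin3a minus the Grin2 mean to 0.016, and leaving out sham libraries 5 and 9 turned Grin3a to 0.043. A minimum difference of 0.25 left 987 genes called higher, 446 lower and 3 pathway genes lower, since it removes small differences by construction.

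With a library left out Grin2a ran from 0.065 to 0.091 and was called in 4 of 21 fits, Grin1 minus the neuron markers ran from 0.062 to 0.11 and passed in 1, and Hap1, not called, ran from -0.11 to 0.096 with 4 of 21 positive.

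Same-numbered libraries of the groups did not deviate together, with r from -0.31 to 0.36 (median -0.13) over 10 pairs, and 0 of 10 sham libraries correlated best with their own number, so the numbers were not read as pairs. With the replicate block Grin1 was at 0.32, Grin2a 0.086, Grin2b 0.046 and Grin3a -0.075, with the calls of these members unchanged, and 1739 genes were called higher and 1758 lower, against 1810 and 1864 without it. The replicate block with the GC trend removed gave 0.079 for Grin2b, which was then not called (adjusted p = 0.0598 from limma), 0.041 for Grin1 minus the Grin2 mean, 0.039 minus Grin2a and 0.043 minus Grin2b, none past the threshold, -0.036 minus the neuron markers, -0.281 minus Gria1 (called), -0.030 for the AMPA minus NMDA mean and 12 pathway genes called lower. Of 135 settings of the members, the subunit differences and the counts, 112 kept direction and call. Depth is unknown, and Grin3a, with a low value, was dropped by the filter on the lowest quartile.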
